A study of Mus musculus with 1989 samples.

Results

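Innate-like and cytotoxic lymphocyte genes were followed through mouse thymocytes in 2 kinds of single-cell data, the RNA of single cells (scRNA-seq) and the open chromatin of single cells (scATAC-seq). The 9 genes were chosen by name, with earlier results of these data known: Nkg7, Klrd1, AW112010, Ccl5, Fcer1g, Ctsw, Il2rb, Xcl1 and Tbx21. Of these, 8 had a row among the 8846 genes of the scRNA-seq table, and Tbx21 was not analysed there. All 9 had peaks in the scATAC-seq table, 58 of its 138317 peaks. All cells were from the thymus of male C57BL/6 mice, 7 weeks old per the labels, with no treatment or altered allele named for any group. The scRNA-seq data were 1 library of 1993 cells. The scATAC-seq data were 1084 unsorted (total) thymocytes, of 1436 in the labels, and cells of 4 sorts, 182 of the DN, 125 of the DP, 119 of the CD4 and 116 of the CD8 sort, named for the coreceptors CD4 and CD8 (DN has neither, DP has both). No animal was named for any cell, so the library and each sort were treated as 1 sample, no test between groups was run, and intervals (exact 95%, Clopper-Pearson for shares and Poisson for sums) cover counting error only.

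Natural killer (NK) cells and innate-like T cells, such as NKT cells, are ready to kill or to secrete cytokines soon after they meet a target, and their programs share granule proteins, NK receptors, chemokines and the receptor chain for IL-2 and IL-15. In the thymus these cells develop beside conventional thymocytes, which pass from DN over the immature single-positive (ISP) stage to DP and, after selection, to CD4 or CD8 single-positive cells. Several of the same genes are also used by CD8 T cells, in which Runx3 acts as a lineage factor, whereas Zbtb7b (ThPOK) acts in CD4 T cells. Among the 9 genes, Nkg7 and Ctsw (cathepsin W) encode granule-associated proteins of cytotoxic cells, Klrd1 encodes CD94, the partner of the NKG2 receptors, and Fcer1g encodes the Fc receptor gamma chain, a signalling adaptor. Ccl5 and Xcl1 encode chemokines, Il2rb the shared beta chain of the IL-2 and IL-15 receptors, and Tbx21 the transcription factor T-bet. AW112010 is annotated as a long intergenic non-coding RNA.

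The members lie on 6 chromosomes of GRCm38. Nkg7 is on the plus strand of chr7:43437073-43438249 and Klrd1 on the plus strand of chr6:129591782-129598775. On the minus strand are AW112010 at chr19:11047612-11055808, Ctsw at chr19:5465043-5468507, Il2rb at chr15:78479256-78495271, Ccl5 at chr11:83525778-83530518 and Tbx21 at chr11:97098071-97115331. Fcer1g at chr1:171229572-171234365 and Xcl1 at chr1:164931644-164935527 are also on the minus strand. Pairs on chromosomes 1, 11 and 19 are megabases apart and shared no peak.

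Cells were clustered without the members and each cluster took the class of its markers, which gave 78 DN-like, 304 ISP-like, 344 DPbla-like (dividing DP blasts), 499 DPre-like (DP cells rearranging their receptor genes), 354 DPsel-like (cells in selection) and 348 CD4sp-like cells. A cluster of 31 cells, 1.56% of the library, was NCL-like (nonconventional lymphocytes), and 35 cells were APC-like (antigen-presenting cells). No cluster took the CD8sp name. The CD4sp-like and DPsel-like clusters are therefore called by that rule only. Some scores were close: CD4sp-like cluster 1, with 192 of the 348 cells, scored 0.873 for CD4sp and 0.738 for CD8sp markers and had Cd8b1 above 0 in 82.3% and Cd4 in 48.4% of its cells, DPsel-like cluster 2 scored 0.848 for DPsel and 0.686 for CD4sp markers, and CD4sp-like cluster 6 scored 1.82 for CD4sp and 1.74 for DPsel markers. Within a cell the values fall on a ladder of distinct levels, and the rung of a value (its step) stands in for a molecule count, so the sum of steps was taken as the depth of the cell: the class median was between 1938 (NCL-like) and 2209 (CD4sp-like) for NCL-like, DPre-like, DPsel-like and CD4sp-like cells, 2412 for APC-like cells, and higher in DN-like (3633), DPbla-like (5241.5) and ISP-like cells (7366.5). RNA of thymocytes was found in APC-like cells, with Trbc2 above 0 in 100% and Cd8b1 in 88.6% of them, and free RNA and doublets cannot be told apart as its source.

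The first comparison asked where in the thymus the members are expressed. NCL-like cells had the highest mean value of any class for 7 of the 8 members, and Fcer1g had its highest mean in APC-like cells. AW112010 was above 0 in 31 of 31 NCL-like cells, at a mean of 3.56 ± 0.74 (log2 scale, SD over the cells) against 0.23 ± 0.54 in the other T-lineage classes, the first of 8846 genes by that difference. Nkg7 was also above 0 in 31 of 31 cells, at 2.89 ± 0.95 against 0.14 ± 0.51, and had rank 3. All 8 members were higher by at least 0.5, against 1.18% of all genes (104 of 8846), and 6 were after each cell was thinned to 1300 steps, where Fcer1g differed by 0.49 and Xcl1 by 0.37.

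The NK receptor partner Klrd1 was detected, that is above 0, in 80.6% of the NCL-like class (interval 62.5 to 92.5%), with a mean of 1.60 ± 1.15 against 0.01 ± 0.14 in the other T-lineage cells. In the DPre-like class, which should lack these genes and had a like depth, the share was 1.00%. It was 1.69% in DPsel-like cells and 4.02% in the CD4sp-like clusters, and 0 of 78 DN-like cells had it, with an exact upper bound of 4.62% of cells above 0. The share was 11.4% in APC-like cells (5.71% at 1300 steps). Klrd1 thus set the NCL-like cells apart from every other class, including the deeper ones. Il2rb was found in 64.5% of NCL-like cells (45.4 to 80.8%), 5.46% of CD4sp-like cells, 5.37% of the DPsel-like class and 0.601% of the DPre-like class. It was at 0 in all DN-like and all APC-like cells.

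The granule genes reached further into conventional cells. Nkg7 was above 0 in 53.8% of DN-like (42.2 to 65.2%), 17.8% of CD4sp-like (13.9 to 22.2%) and 13.3% of DPsel-like cells (9.92 to 17.3%), but in only 2.40% of cells of the DPre-like class (1.25 to 4.16%). After each cell was thinned to 1300 steps, these shares were 29.5%, 16.7%, 9.32% and 1.80%, and that of NCL-like cells was 93.5%. Ctsw was above 0 in 80.6% of NCL-like, 28.7% of CD4sp-like and 17.2% of DPsel-like cells, and in 2.81% of the DPre-like class. The DPsel-like class was not uniform in them. In its cluster 2 (191 cells), whose leading genes Tmsb10, Cd52, Shisa5, B2m and H2-D1 also lead CD4sp-like cluster 1, Nkg7 was above 0 in 23.0% and Ctsw in 28.8% of cells. In its cluster 4 (163 cells) the shares were 1.84% and 3.68%, close to those of the DPre-like class. Within the CD4sp-like class, likewise, Nkg7 was above 0 in 29.7% of cluster 1 and 3.21% of cluster 6, and Ctsw in 42.2% and 12.2%.

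AW112010 was the most widespread member. It was above 0 in 80.0% of APC-like (63.1 to 91.6%), 70.5% of DN-like (59.1 to 80.3%), 27.3% of CD4sp-like and 22.9% of DPsel-like cells, and in 14.8% of the DPre-like class. At 1300 steps NCL-like (100%), APC-like (51.4%) and DN-like cells (42.3%) still had the highest shares, with intervals of the latter pair that overlapped, and the lowest was that of DPbla-like cells (3.78%), below DPre-like cells (8.22%). The 44.4% of ISP-like cells with AW112010 became 11.8% after thinning, beside a depth several times that of the DPre-like cells.

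The chemokine Ccl5 split the NCL-like cells. It was above 0 in 14 of 31 cells (45.2%, 27.3 to 64.0%) with a median of 2.93 and a highest value of 7.14 among those, while 17 cells were at 0, so that its SD over cells (2.23) exceeded its mean (1.51). Outside these cells it was above 0 in 33.9% of ISP-like and 31.4% of APC-like cells, and in 12.2% of the DPre-like class. Once thinned to 1300 steps, shares in the 6 conventional classes came to between 6.21% and 12.8%, close to one another, against 38.7% of NCL-like and 20.0% of APC-like cells.

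Fcer1g was above 0 in 35.5% of NCL-like (19.2 to 54.6%) and 37.1% of APC-like cells (21.5 to 55.1%), and in 3.21% of DPre-like cells. Its mean was 0.77 ± 1.21 in NCL-like and 0.86 ± 1.40 in APC-like cells, a difference within the SD over cells. Xcl1 was above 0 in 61.3% of NCL-like cells (42.2 to 78.2%), with a mean of 0.71 ± 0.71, and in 13 of all other T-lineage cells. In DPre-like, DN-like and APC-like cells it was at 0 throughout, and the 0 of 499 DPre-like cells have an exact upper bound of 0.737% of cells above 0.

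**Figure D1:**
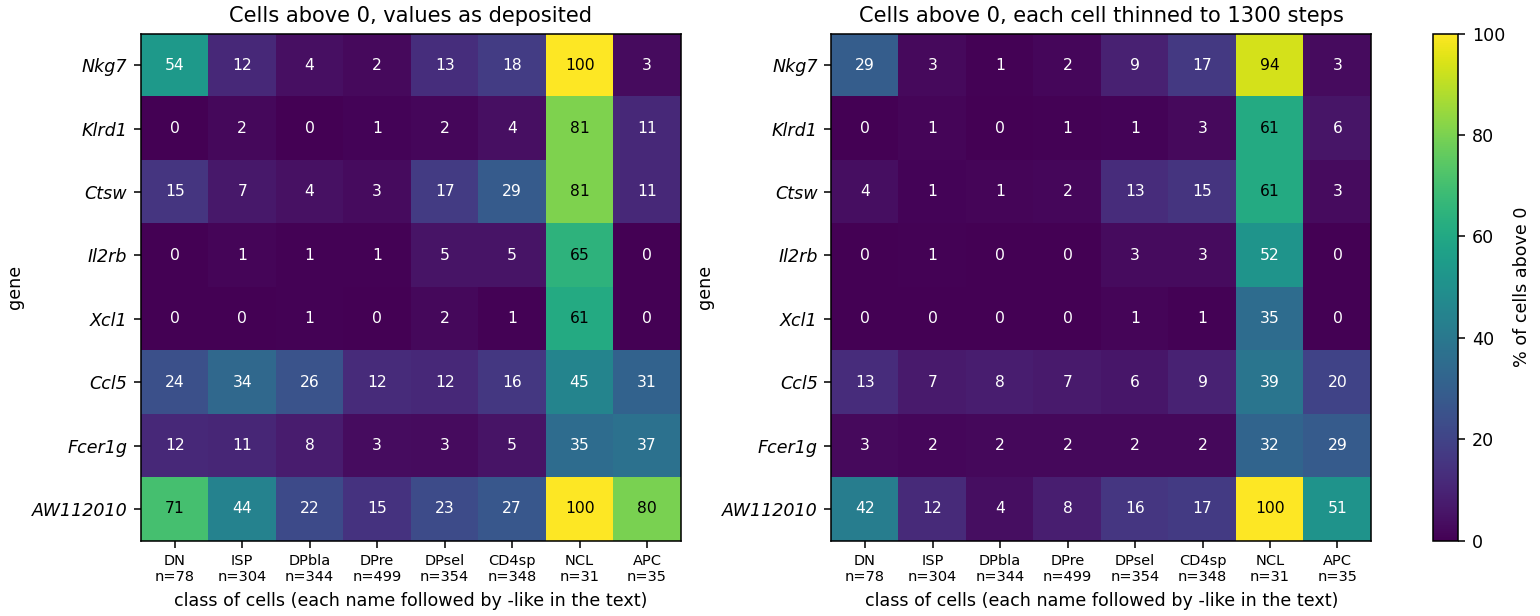
Share of cells above 0 (%) for the 8 members (rows) in the 8 classes (columns, with cell numbers), as deposited on the left and after thinning every cell to 1300 steps on the right. The NCL-like column is the brightest for 7 members on the left and for all 8 on the right, Fcer1g is about as frequent in APC-like cells, and Nkg7 and AW112010 also stand out in DN-like cells.

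The 31 NCL-like cells were not alike. The number of members above 0 ranged from 3 to 8 per cell with a median of 6, and 3 cells had all 8. Nkg7 ran from 0.05 to 4.76 and AW112010 from 0.49 to 4.76, and both lowest values came from the same cell, which was the deepest of the class at 11171 steps. Nkg7 and AW112010 were the only members found in every cell, whereas Fcer1g was at 0 in 20, Ccl5 in 17, Xcl1 in 12 and Il2rb in 11 of the 31 cells.

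**Figure D2:**
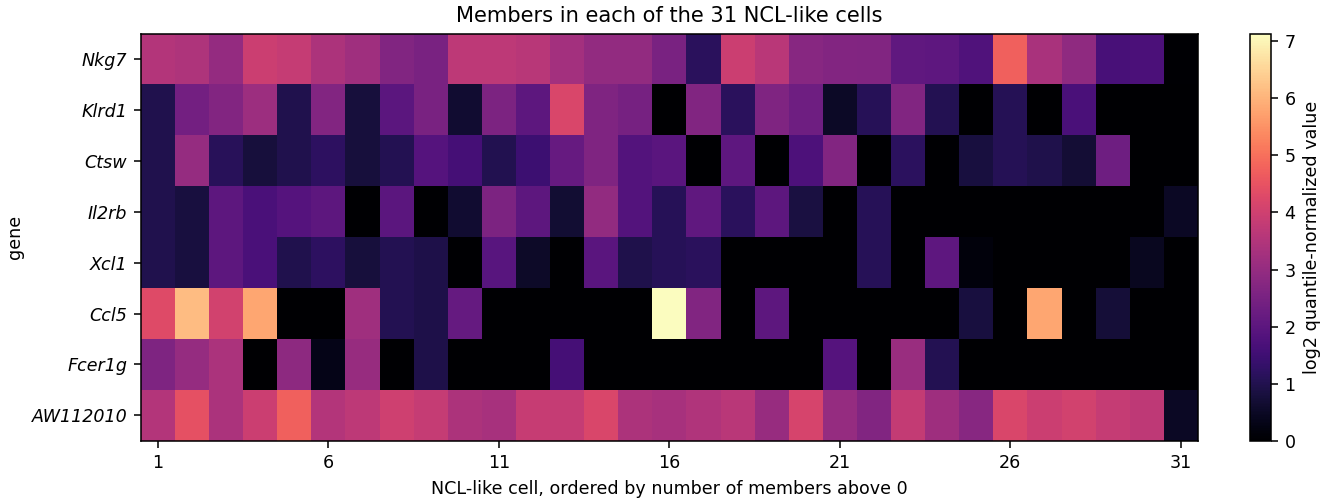
Log2 value (color) of each member (rows) in each of the 31 NCL-like cells (columns), ordered by the number of members above 0. Nkg7 and AW112010 fill every column, Ccl5 reaches 7.14 in some cells and is at 0 in 17, and the cells at the right have only 3 or 4 members.

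The class was checked against markers of the cells it could hold. All 31 cells had at least one of the CD3 genes (Cd3d, Cd3e or Cd3g) above 0, Trac was above 0 in 27, Trdc in 4 and Tcrg-C1 in 12. Since such RNA was also found in APC-like cells (Cd3g in 60.0%, against 96.8% of NCL-like cells, and Trac in 37.1% against 87.1%), these shares do not by themselves mark T cells. Mean values were higher in NCL-like than in APC-like cells, at 2.46 against 0.68 for Cd3g, 1.65 against 0.52 for Cd3e and 1.96 against 0.36 for Trac. Among B cell markers, Ms4a1 and Cd79a were at 0 in all NCL-like cells, and none of 6 B cell, 6 myeloid, 7 dendritic, 2 erythroid, 3 epithelial and 1 granulocyte and mast cell markers was higher by 0.5 than in other T-lineage cells. The 10 genes with the largest difference to other T-lineage cells were AW112010, Id2 (a factor needed for innate lymphocytes), Nkg7, S100a6, Tmsb10, H2-D1, Ly6c2, Hcst (DAP10, the adaptor of NKG2D), Cd52 and H2-K1. Id2 and S100a6 were among the markers that named the class, and 2 of the 10 were members.

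Other genes of the same programs, from lists chosen by function, were counted by the same difference of 0.5. Variable genes among them took part in the clustering. Of those named below, Klrk1, Klrb1c, Cxcr6 and Id2 were also among the markers that named the class. Higher values of such genes in NCL-like cells are thus partly built in. Over all genes 1.18% were that much higher and the median difference was -0.01. Of 15 NK receptor genes in the table, 5 were higher (median 0.29): Klra9 by 1.69, Klrk1 (NKG2D) by 1.56, Klrb1c (NK1.1) by 0.91, Klrc2 by 0.74 and Klre1 by 0.57. Medians of the other lists of these programs ran from -0.04 (transcription factors) to 0.23 (chemokines, cytokines and their receptors). Klrc2 encodes an NKG2 chain that pairs with CD94, the product of Klrd1, and was above 0 in 51.6% of NCL-like cells. Of 8 adaptor and signalling genes, Hcst was higher by 2.09 and Sh2d1a (SAP) was lower, at -0.97, while Tyrobp (DAP12) differed by 0.38.

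Of 17 cytotoxic granule genes 3 were higher, namely Ctsd by 1.02, Gzmb (granzyme B) by 0.89 and Srgn (serglycin, the granule proteoglycan) by 0.67. Gzmb was above 0 in 45.2% of NCL-like cells, whereas Gzma had a mean of 0.45 in NCL-like and 0.38 in other T-lineage cells. Among 16 genes of the IL-2, IL-15, IL-12 and IL-18 pathway, which includes the partners of Il2rb, 4 were higher: Il7r by 1.03, Bcl2 by 0.82, Jak1 by 0.61 and Il2rg (the common gamma chain) by 0.51. Il2ra, the alpha chain that makes the high-affinity IL-2 receptor, was at 0 in all 31 cells, as was Il15ra. Of 7 chemokine, cytokine and chemokine receptor genes Cxcr6 (by 0.99) and Ltb (by 0.67) were higher, and Xcr1, the receptor of Xcl1, was at 0 in NCL-like cells. Among 11 transcription factors Id2 (by 3.16) and Runx3 (by 0.60) were higher and Id3 lower (-0.57). Of 11 genes of unconventional T cells only Ly6c2 passed (by 2.11), and the gamma chain genes Tcrg-C1 and Tcrg-C4 differed by 0.41 and 0.42.

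The second comparison asked how often the members occurred in the same cell. At least 3 of the 8 members were above 0 in 8.63% of all 1993 cells (7.43 to 9.95%) and in 3.56% at 1300 steps, and at least 4 in 73 cells. Of those 73, 29 were NCL-like, 23 CD4sp-like (all of cluster 1), 6 DPsel-like, 5 ISP-like, 4 DN-like, 4 APC-like and 2 DPbla-like, and none was DPre-like. The NCL-like cells reached this number at a median depth of 1930 steps and the other 44 cells at 3466.5. Among classes, at least 4 members were found in 93.5% of NCL-like (78.6 to 99.2%), 11.4% of APC-like, 6.61% of CD4sp-like (4.24 to 9.75%), 5.13% of DN-like and 1.69% of DPsel-like cells.

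Among the 44 cells outside the NCL-like cluster, the 23 CD4sp-like cells all had Nkg7 above 0. None of them had Klrk1 or Klra9, but some had Klrd1, Id2, S100a6 or Ly6c2, and single cells had Cxcr3 or Gzmb. The cell with the most members, 7, had Nkg7 at 4.2, Klrd1 at 3.25, Xcl1 at 2.98 and Il2rb at 2.48. It also had S100a6 at 2.98, and Cd4 and Cd8b1 at 0. The 4 APC-like cells had none of Nkg7, Il2rb or Xcl1 and reached the number through AW112010, Ccl5, Fcer1g and Ctsw or Klrd1. Cell doublets were not called, and their part in these combinations was not tested.

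**Figure D3:**
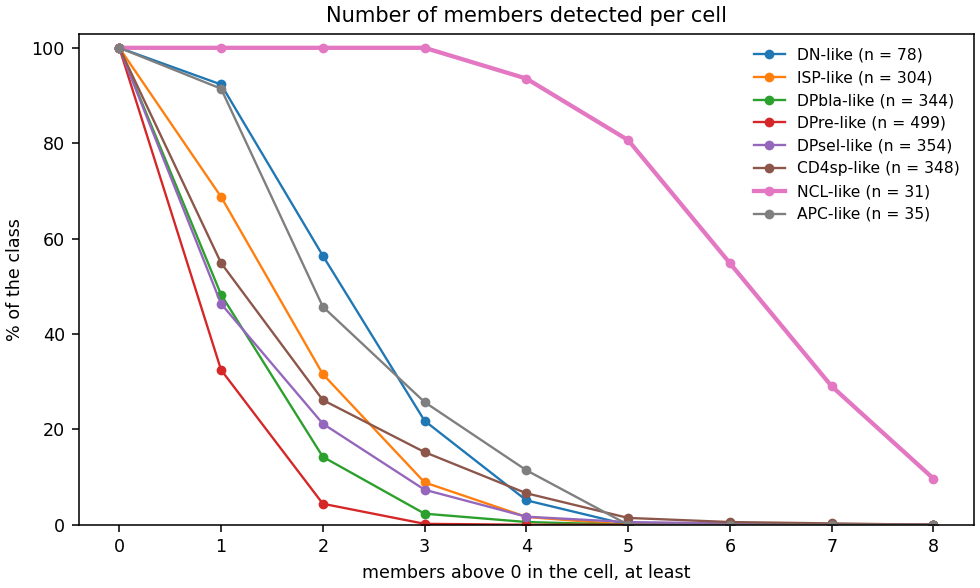
Share of the cells of each class (%) with at least the number of members above 0 given on the horizontal axis, 1 line per class. The NCL-like line stays at 100% up to 3 members and at 93.5% for 4, where the lines of the other classes lie at 11.4% or below.

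Pairs were set beside the number of cells that the product of the 2 shares gives. Klrd1 and Xcl1 were found together in 18 cells against 0.979 by the product (18.4 times), Il2rb and Xcl1 in 17 against 1.08 (15.8 times) and Klrd1 and Il2rb in 24 against 2.05 (11.7 times). Without NCL-like cells the same pairs were found in 2, 3 and 6 cells, 8.38, 9.63 and 6.96 times the product, so most cells with these pairs were NCL-like. Nkg7 and Ctsw were found together in 111 cells against 30.7 (3.61 times), and the ratio was 3.51 without NCL-like cells (86 cells against 24.5). Of those 86 cells 44 were CD4sp-like, and within that class the ratio was 2.47. Nkg7 and Ccl5 were close to the product, with 59 cells against 48.1 (1.23 times) and a ratio of 1.09 without NCL-like cells.

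The genes most like each member followed the same division. Over 1993 cells, all of 1 library, Klrd1 was most like Klrk1 (Pearson r = 0.59), Gzmb (0.57) and Ly6c2 (0.54), and without NCL-like cells r was 0.03, -0.004 and 0.04. Il2rb was most like Klrk1 (0.52), Klre1 (0.45) and Ahnak (0.45), and Xcl1 most like Klrk1 (0.38), S100a6 (0.38) and Cd7 (0.37). AW112010 was most like Ly6c2 (0.46), Klrk1 (0.44) and Klra9 (0.44), which came to 0.09, 0.02 and 0.04 without these cells. Nkg7 was most like Cd7 (0.53), Ly6c2 (0.44) and Runx3 (0.42), and its relation to Cd7 (0.40) and Runx3 (0.40) was still seen without NCL-like cells. Ctsw was most like Ms4a4b (0.40), H2-D1 (0.38) and Shisa5 (0.37), genes of maturing thymocytes in these clusters. Fcer1g was most like Tyrobp (0.62), S100a6 (0.52) and Scimp (0.50), and Ccl5 most like Fscn1 (0.45), Zmynd15 (0.40) and Lrrk1 (0.39), for which r with Fscn1 was 0.55 without NCL-like cells. Members were left out of these candidates, and Klrd1 with Il2rb (0.61) exceeded every pair named here except Fcer1g with Tyrobp.

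The third comparison asked whether the members differed between the CD8 and CD4 lineages after selection. Since no cluster took the CD8sp name, the DPsel-like and CD4sp-like cells were split by coreceptor RNA, a choice made after seeing the clusters. Nkg7 was above 0 in 22.9% of 362 cells with Cd8a or Cd8b1 and no Cd4 (18.7 to 27.6%) and in 8.25% of 291 cells with Cd4 (5.36 to 12.0%), at median depths of 2065.5 and 2175 steps. Its difference in mean log2 value, 0.28, had rank 3 of 8846 genes. Between CD8sp-like and CD4sp-like clusters, where other settings gave both, the difference was 0.04 for Nkg7 and -0.31 for AW112010 with 20 neighbors, and 1.07 and 0.22 in a clustering that used the members. AW112010 differed by 0.11 (28.5% against 21.0% of cells) and Ctsw by 0.10 (26.2% against 20.3%), with intervals that overlapped for both shares. Differences of at least 0.1 were found for 2 of 8 members, against 0.588% of all genes (52 of 8846). Klrd1 (0.04), Il2rb (0.01), Fcer1g (-0.01), Xcl1 (-0.02) and Ccl5 (-0.03) differed by less.

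The same cells were also split by the lineage factors Runx3 and Zbtb7b, a choice made after seeing the data. Runx3 was already among the 3 genes most like Nkg7 (r = 0.42), so for Nkg7 the split is not independent of that relation. Among the same cells, 140 had Runx3 and no Zbtb7b above 0, 71 had Zbtb7b and no Runx3, and 482 had neither, with median depths of 2436.5, 2175 and 1981.5 steps. Nkg7 was above 0 in 52.1% of the Runx3 cells (43.5 to 60.7%), in 1.41% of the Zbtb7b cells (0.04 to 7.60%, 1 cell) and in 7.26% of cells with neither (5.11 to 9.95%). Ctsw was found in 45.7% (37.3 to 54.3%), 12.7% (5.96 to 22.7%) and 18.0% (14.7 to 21.8%). Both granule genes were thus found in several times as many Runx3 cells as Zbtb7b cells, with intervals that did not overlap.

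The receptor genes were found in fewer of these cells. Il2rb was above 0 in 12.1% of Runx3 cells (7.24 to 18.7%) and in 0 of 71 Zbtb7b cells (upper bound 5.06%), with 3.94% of cells with neither. Klrd1 was found in 10.7% (6.12 to 17.1%) and 1.41% (0.04 to 7.60%), with intervals that overlapped, and in 0.83% of cells with neither. The 9 cells with both factors had Nkg7 in 0 and Ctsw in 1. AW112010 was found in 41.4% (33.2 to 50.1%) and 23.9% (14.6 to 35.5%), Ccl5 in 16.4% and 7.04%, Fcer1g in 5.71% and 2.82% and Xcl1 in 4.29% and 0%, all with overlapping intervals. At 1300 steps Nkg7 was above 0 in 45.0% of the Runx3 cells and in none of the Zbtb7b cells, and Ctsw in 24.3% and 7.04%. The Runx3 cells also had Cd8a in 80.7% and Cd4 in 26.4%, against 64.8% and 50.7% of the Zbtb7b cells.

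**Figure D4:**
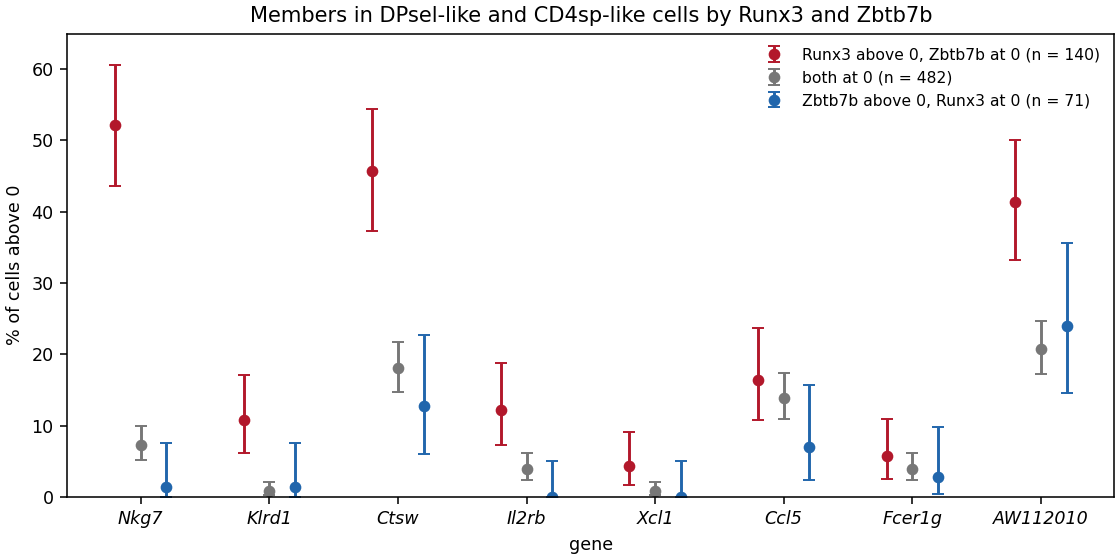
Share of DPsel-like and CD4sp-like cells above 0 (%) for each member, in cells with Runx3 and no Zbtb7b (red, 140 cells), with neither (gray, 482 cells) and with Zbtb7b and no Runx3 (blue, 71 cells), with exact 95% binomial intervals. Nkg7 (52.1% against 1.41%) and Ctsw (45.7% against 12.7%) differ the most, and the intervals of Ccl5 and Fcer1g overlap.

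DN-like cells carried Nkg7 without the NK receptor genes. In the 42 of 78 DN-like cells with Nkg7, Klrd1, Il2rb and Xcl1 were at 0, as in the other 36, and AW112010 was above 0 in 69.0% and 72.2%. Il2ra, a marker of the DN stages before and during the beta chain checkpoint, was above 0 in 90.5% of DN-like cells with Nkg7 (77.4 to 97.3%) and in 66.7% of those without it (49.0 to 81.4%), at median depths of 3614 and 3657 steps. Ptcra, the pre-T cell receptor alpha chain, was found in 52.4% and 72.2%, and Id2 in 19.0% and 13.9%. All 4 pairs of intervals overlapped.

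Xcl1 was found in 32 cells. Of these 19 were NCL-like, at up to 2.04, and 8 were DPsel-like cells of cluster 2, 4 of which had values of 2.2, 2.94, 3.87 and 4.76, above any NCL-like cell. The cell at 4.76 had neither Nkg7 nor Klrd1 above 0, and that at 3.87 had Nkg7 at 2.75.

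Among APC-like cells Ccl5 was above 0 in 11 cells, of which 6 also had Fcer1g. Ccl5 was above 0 in 5 of 5 cells with Fscn1 and Ccr7, genes of mature migratory dendritic cells, with a lowest value of 3.22, a median of 5.82 and a highest of 6.14, and in 6 of the other 30. The same 5 cells had AW112010 from 2.89 to 4.67, and the other 30 had it at a median of 0.66. Fcer1g was above 0 in 12 of 20 cells without Cd79a, a B cell receptor chain, and in 1 of 15 with it, and its adaptor relative Tyrobp in 18 and 5. These splits were chosen after the like genes of Ccl5 and Fcer1g were seen.

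The fourth comparison asked whether the chromatin at the members differed between sorts. Counts in peaks totalled 1108749 in DN, 478264 in DP, 558091 in CD4, 494645 in CD8 sorted cells and 6402950 in total thymocytes. The CD4, CD8 and DP sorts had the signal of their names at Zbtb7b (97 counts in CD4 against 20 in CD8 sorted cells), Cd8a (94 against 244) and Rag1 (97 counts in DP against 0 in CD4 sorted cells). The DN sort did not at Il2ra, where its signal was the lowest of the 4 sorts (2.16 per 10000 against 3.66 in DP sorted cells), nor at Ptcra (0.253 against 0.314). It was also the lowest of the 4 at Cd4 (1.03 against 1.90 in DP sorted cells) and Cd8a (1.54 against 7.72), as its name implies. At Cd8b1 it had 1.89, against 7.26 in DP and 1.24 in CD4 sorted cells. In all 58 peaks of the 9 members together there were 351 counts in DN, 68 in DP, 246 in CD4, 203 in CD8 sorted cells and 814 in total thymocytes. Per 10000 counts in peaks these were 3.17, 1.42, 4.41, 4.10 and 1.27, so that DP sorted cells and total thymocytes were low and the other 3 sorts high. DP cells are the majority of thymocytes.

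CD8 sorted cells had at least 1.5 times the signal of DP sorted cells at all 9 members, of which 7 had at least 10 counts in both sorts together, against 22.0% of 11834 genes with that many counts. Klrd1 had 23 counts in CD8 and 0 in DP sorted cells, which is at least 7.41-fold higher (floor of 3 counts over the sort). Nkg7 had 9 and 0 (at least 2.90-fold higher, and 1.29-fold from the 4 counts in peaks that do not overlap), Fcer1g 8 and 1, Ctsw 12 and 2 (ratio 5.80, 1.29 to 53.4), Il2rb 40 and 6, Ccl5 9 and 4, AW112010 22 and 9, Tbx21 26 and 13 and Xcl1 54 and 33. Because a read can count in overlapping peaks, intervals were taken from peaks that do not overlap: the ratio was 5.08 for Il2rb (1.71 to 20.3), 1.54 for Xcl1 (0.93 to 2.59), 1.40 for AW112010 (0.55 to 3.70) and 2.54 for all members (1.85 to 3.55). Only Klrd1, Il2rb and Ctsw thus exceeded the DP sorted cells beyond counting error on their own. Of the 26 Tbx21 counts in CD8 sorted cells, 14 came from 1 cell, and without it the signal was 0.252 per 10000 against 0.272 in DP sorted cells. Other settings put single members below the DP sorted cells: Nkg7 at 0.789 in peaks of the gene body and 10000 bp on each side, Tbx21 at 0.896 with counts above 0 taken as 1, and Ccl5 at 0.609 and Tbx21 at 0.778 with each cell given the same weight. Peaks at the start sites alone, which hold fewer counts, gave a higher ratio for AW112010 (14.5) and Xcl1 (2.90) and a lower bound of 5.16 for Klrd1.

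CD8 and CD4 sorted cells were closer to each other. Ctsw, with 12 counts in CD8 and 3 in CD4 sorted cells (ratio 4.51, 1.22 to 24.9, but 0.858 in peaks of the gene body and 10000 bp on each side), and Klrd1, with 23 and 17 (ratio 1.53, and 1.85 with an interval of 0.91 to 3.90 in peaks that do not overlap), passed 1.5, which is 2 of 9 members against 19.4% of 12321 genes. Nkg7 had 9 counts in each. Xcl1 was lower in CD8 than in CD4 sorted cells, with 54 and 102 counts (ratio 0.597, and 0.703 with an interval of 0.47 to 1.04 in peaks that do not overlap). Over all members the ratio was 0.971 (0.77 to 1.22). The summed signal of dendritic cell markers was 4.39 per 10000 in CD4 and 2.41 in CD8 sorted cells, and its part in the members' counts was not tested.

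DN sorted cells had at least 1.5 times the signal of DP sorted cells at 7 of 9 members, against 29.8% of 13396 genes. In peaks that do not overlap 5 of 9 did, and the share over all genes was not counted there. In those peaks Fcer1g was at 1.29, Tbx21 at 1.19 and AW112010 at 0.719. Klrd1 had 24 counts in DN sorted cells (at least 3.45-fold higher than the 0 of DP sorted cells), Nkg7 22 (at least 3.16-fold), Il2rb 62 against 6 (4.21 in peaks that do not overlap, 1.52 to 16.2), Ccl5 29 against 4, Ctsw 14 against 2, Tbx21 57 against 13 and Fcer1g 9 against 1. AW112010 (27 against 9, ratio 1.29) and Xcl1 (107 against 33, ratio 1.40) stayed under 1.5 over all their peaks. Peaks at the start sites alone, which hold fewer counts, gave 7.33 for both and 4.03 for Tbx21, but at least 1.01 for Klrd1 (0 counts in DP sorted cells). Peaks of the gene body and 10000 bp on each side gave 7.33 for Xcl1 and 1.12 for Nkg7. Fcer1g was at 0.944 in peaks of the gene body and 10000 bp on each side, and Ccl5 at 0.857 with each cell given the same weight. Klrd1 and Il2rb, whose RNA was at 0 in all DN-like cells of the scRNA-seq library, thus had counts in DN sorted cells, which were taken in another experiment. Of 9 myeloid marker genes tested 6, and of 7 dendritic marker genes 5, were also at least 1.5 times higher in DN than in DP sorted cells, with summed signals of 3.07 against 2.84 and 4.23 against 2.40 per 10000, and the part of such cells in the members' counts was not tested. Among B cell markers Cd79a had 1 count in DN and 0 in DP sorted cells.

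**Figure D5:**
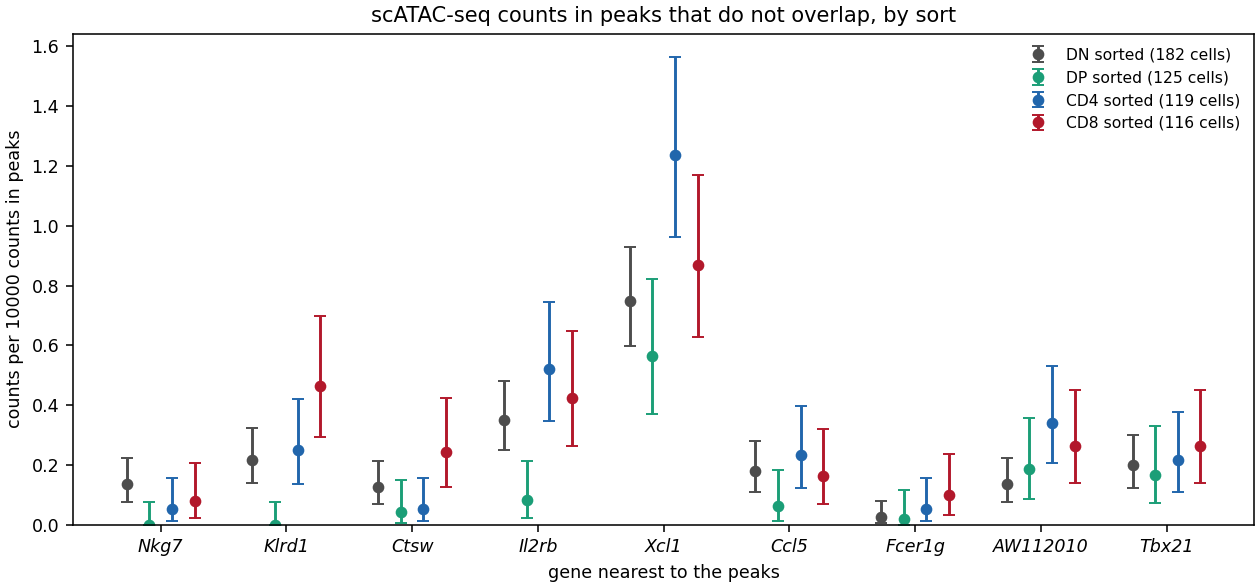
Counts per 10000 counts in peaks at each member (peaks that do not overlap) in DN (gray), DP (green), CD4 (blue) and CD8 (red) sorted cells, with exact 95% Poisson intervals. DP sorted cells are at 0 for Nkg7 and Klrd1 and lowest for 8 of the 9 members, and the intervals of Klrd1 and Il2rb lie above those of DP sorted cells in all 3 other sorts, that of Xcl1 in CD4 sorted cells only.

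The peaks at the start sites carried part of this signal. At Klrd1 a peak centred just before the start (chr6:129589665-129593664) had 16 counts in CD8, 6 in CD4, 7 in DN and 0 in DP sorted cells and 0 in total thymocytes. At Nkg7 the peak centred at -77 bp relative to the start (chr7:43434997-43438996) had 15 counts in DN, 3 in CD4, 4 in CD8 and 0 in DP sorted cells. At Ctsw the only peak (chr19:5466484-5470483), centred 5 bp after the nearest transcript start, had 14, 3, 12 and 2. At Il2rb the main peak of the start (chr15:78493081-78497080) had 22 counts in DN, 26 in CD4, 15 in CD8 and 3 in DP sorted cells. The 18 Xcl1 peaks, given to it as the nearest start, reached to -97241 bp, and its most counted upstream peak (centred at -24803 bp) had 30 counts in CD4, 24 in DN, 10 in CD8 and 4 in DP sorted cells, while an intronic peak centred 1538 bp after the start had 12 counts in DN and 0 in CD8 sorted cells. Ccl5 had no peak within 2000 bp of its start, and its nearest was centred at -4295 bp.

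Promoter sequences (250 bases before the RefSeq start, GRCm38.p6) were held for 5 of the 9 members, Nkg7, AW112010, Fcer1g, Xcl1 and Tbx21. Those of Nkg7, Xcl1 and Tbx21 are shown since each lies within the span of a start-site peak and holds one of 4 short motifs searched on both strands. The capitals mark the matches: GGTGTG or CACACC (T-box, in 16.28% of 32851 promoters of that length), TGTGGT or ACCACA (RUNX, 14.05%) and GGAAGT or ACTTCC (ETS, 19.74%). The fourth, CAGCTG (an E-box, 13%), was in none of the 5, and AW112010 and Fcer1g held no match. The share of all promoters with any of the 4 motifs was not counted, so the number of members with a match is not read as a result. The Nkg7 promoter is on the plus strand at chr7:43436888-43437137, and those of Xcl1 (chr1:164935523-164935772) and Tbx21 (chr11:97115332-97115581) are on the minus strand.
Nkg7: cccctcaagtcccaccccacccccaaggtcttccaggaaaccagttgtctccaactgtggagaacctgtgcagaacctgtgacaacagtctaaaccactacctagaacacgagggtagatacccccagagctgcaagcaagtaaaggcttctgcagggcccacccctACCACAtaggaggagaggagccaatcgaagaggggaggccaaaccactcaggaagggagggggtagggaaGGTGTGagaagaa
Xcl1: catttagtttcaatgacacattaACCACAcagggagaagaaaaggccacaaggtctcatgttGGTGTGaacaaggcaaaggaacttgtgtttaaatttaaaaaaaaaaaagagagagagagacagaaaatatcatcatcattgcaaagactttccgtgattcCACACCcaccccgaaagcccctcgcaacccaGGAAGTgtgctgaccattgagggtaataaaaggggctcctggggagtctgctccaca
Tbx21: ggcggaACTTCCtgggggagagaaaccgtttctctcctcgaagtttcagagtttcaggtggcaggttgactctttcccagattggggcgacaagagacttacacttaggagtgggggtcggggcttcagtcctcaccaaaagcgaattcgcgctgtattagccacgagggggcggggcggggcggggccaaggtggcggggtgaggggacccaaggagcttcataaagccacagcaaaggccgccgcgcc
Nkg7 and Xcl1 each held a T-box and a RUNX match. In Nkg7 they lie at -13 to -8 and at -83 to -78 bp of the RefSeq start, within the span of the peak with 0 counts in DP sorted cells. The centre of that peak was given from the annotated gene start instead, which lies upstream of the RefSeq start. The T-box match of Nkg7 thus falls inside the annotated gene and the RUNX match before it. Xcl1 also held a further T-box and an ETS match. Tbx21 held only an ETS match, near the far end of the stretch. A match is a stretch of letters and was not tested for binding.

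Counts at several members in 1 cell were less frequent in the DP sort than in the other sorts. At least 2 of the 9 loci had a count in 33.5% of DN (26.7 to 40.9%), 31.1% of CD4 (22.9 to 40.2%), 31.9% of CD8 (23.6 to 41.2%) and 4.0% of DP sorted cells (1.31 to 9.09%), and at least 3 in 19.8%, 12.6%, 19.0% and 0 of 125 cells. These shares move with depth: cells with 3 or more loci had medians of 12623 (DN), 10574 (CD4) and 8194 (CD8) counts in peaks, against 1569.5, 1120 and 1578.5 in cells with none. DP sorted cells had the narrower range of 3743 counts with none and 4303 with 2 loci. Their median of 3866 counts per cell was above those of CD4 (2571) and DN (3377.5) and below that of CD8 sorted cells (3935.5), and their deepest cell had 11734 counts, against 27733 in DN, 29445 in CD4 and 17519 in CD8 sorted cells. The part of depth in the low DP share was not tested.

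The titles of the sorted cells carry numbers in 2 or 3 series, and the order of the sorts was checked within each series. In the series that starts at 4000 the members had 4.02 counts per 10000 in DN, 4.67 in CD4, 4.23 in CD8 and 1.34 in DP sorted cells. In the series of the highest numbers these were 3.16, 3.30, 2.23 and 0.929, from 105, 35, 7 and 5 counts. In the remaining numbers, held by DN and DP sorted cells only, they were 2.84 and 1.76. The sum over members was lowest in DP sorted cells in each series. Single members did not all follow it in the series of the highest numbers, where CD8 over DP was 0.572 for Ccl5 and 0.857 for Xcl1, with 0 of 2 members past 1.5, and DN over DP was 0.485 for Ccl5, with 1 of 4 past 1.5. The share of all genes past 1.5 was not counted within a series.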

How the data were processed

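Thymocytes of C57BL/6 mice were profiled by scRNA-seq (1 library) and scATAC-seq (each cell a sample in the labels). The authors made the scRNA-seq table with Cell Ranger 1.3.1 (GRCm38.p5, per the submitters' processing notes) and deposited log2 values that were quantile normalized after a filter on cells and genes. For scATAC-seq the authors used Bowtie2 to map and Picard to drop duplicate reads, called peaks over pooled cells (MACS2), and deposited a table of raw counts with peaks as rows. All peaks are 4000 bp wide and 85231 overlap the next, while counts of neighbours differ as if taken over a shorter span, whose length is not given in the sources used here. The build was checked as GRCm38 from peak centres and starts.

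The 9 members and all gene lists were chosen with earlier results of these data known. Detection was a value above 0. Cells were clustered without the members (Seurat 5.3.0, R 4.3.3; 20 components, 30 neighbors, resolution 2) and named by the highest mean z score of 58 markers; ISP-like and DPbla-like only where Mki67 was above 0 in at least 50% of cells. Class names are those of rebuilt clusters, and a difference from the study may come from them. Doublets were not called; leaving out the 5% of cells with most genes per cluster (105 cells) was an alternative. The text names all members, the 3 most correlated genes of each among genes above 0 in at least 10 cells, the 10 leading NCL-like genes and up to 4 genes per list by difference to other T-lineage cells; Klre1, Klrc2, Gzma, Sh2d1a, Id3, Il2ra, Il15ra, Xcr1, Tyrobp and the genes of the APC-like and DN-like splits were named after their values were seen.

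Peaks were given to the gene with the nearest start (GENCODE vM21), signal is the sum of counts per 10000 counts in peaks, and a ratio of at least 1.5 was called. Cells held 1 to 37008 counts, with medians from 2571 (CD4 sorted) to 5792 (total thymocytes); 362 columns of per-sample values, most of them total thymocytes whose column name matched no single sample's labels, were not used here. With 1 sample per group no p-value was computed. Functions were tested on simulated data. Python 3.11.15, numpy 2.4.6, scipy 1.17.1, pandas 2.3.3 and matplotlib 3.10.9 were used. Alternatives, among them other clusterings, thinning, promoter peaks, binary counts and label series, are given at the end; those on coreceptor groups, Runx3 and Zbtb7b, and peaks that do not overlap were added after seeing the data.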

Additional observations from a re-analysis of the deposited data

How the results depend on the processing

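All 8 members in the scRNA-seq table were higher in NCL-like cells by at least 0.5 under the other clusterings and without the cells with the most genes, and 6 after thinning to 1300 steps (Fcer1g 0.49, Xcl1 0.37). The median share of NCL-like cells above 0 over the 8 members, 72.6%, was 51.6% when only values above 1 counted as detected. The share of cells with at least 3 members, 8.63%, was 3.01% for values above 1, 3.56% after thinning to 1300 steps and 7.19% without NCL-like cells. The 2 members higher in cells with Cd8 and no Cd4 were 1 after thinning, 1 without the cells with the most genes, 1 at a call of 0.2, and 0 between the CD8sp-like and CD4sp-like clusters at 20 neighbors, where AW112010 was at -0.31. They were 3 in CD4sp-like clusters alone and against cells with Cd4 and no Cd8. They were also 3 between CD8sp-like and CD4sp-like clusters made with the members, but there the members helped to draw the clusters, so that number is not independent of them. The cause was not tested for any of these, and the share over all genes was counted in the main setting only.

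In scATAC-seq, peaks in the gene body and 10000 bp on each side turned Nkg7 in CD8 over DP (0.789), Ccl5 (1.32) and Ctsw (0.858) in CD8 over CD4 and Fcer1g in DN over DP (0.944), and left 1 member higher in CD8 than in CD4 sorted cells. With counts above 0 taken as 1, that number was also 1 and Tbx21 in CD8 over DP was 0.896. With each cell given the same weight, CD8 over DP was 0.609 for Ccl5 and 0.778 for Tbx21, and DN over DP was 0.857 for Ccl5. Members higher in CD8 than in CD4 numbered 4 at a call of 1.2 and 4 in peaks that do not overlap. The share over all genes was not counted for any setting in this paragraph. In the label series of the highest numbers, with 20 CD8 and 29 DP sorted cells, 0 of 2 members passed in CD8 over DP (Ccl5 0.572, Xcl1 0.857) and 1 of 4 in DN over DP (Ccl5 0.485), and Ccl5 was 1.69 in CD8 over CD4. The cause was not tested for any of these settings. Over all values of single members, 332 stayed within the limits set, some of them uncalled values that changed sign, 30 moved, and the 13 that reversed after a call are those named here. Counts were few at Fcer1g, Nkg7 and Ctsw, with at most 12 in DP, CD4 or CD8 sorted cells, and in DP sorted cells also at Klrd1 (0) and Ccl5 (4). No animal was named by which groups could be paired, and no paired analysis was run. The numbers in the titles name cells, and the order of the sorts was compared within their series.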
